A study of Mus musculus with 9 samples.

Results

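Glycolysis splits glucose into pyruvate in a chain of enzyme reactions, and several of its steps are served by isozymes encoded by separate genes. In the brain, aldolase C (Aldoc) and lactate dehydrogenase B and A (Ldhb, Ldha), like the enolases Eno1 and Eno2, are unevenly distributed between cell types: Aldoc is a standard astrocyte marker, and Eno2, the gamma enolase, is known as neuron-specific enolase. Lactate dehydrogenase interconverts pyruvate and lactate, and subunits A and B combine in the same tetramer. The 10 genes described here are Hk1, Pfkp, Pfkm, Aldoa, Aldoc, Eno1, Eno2, Pkm, Ldha and Ldhb. For each gene the transcript with the highest mean count over all samples was taken from its annotated transcripts, which gave 10 members out of 33940 annotated genes and 95533 transcript identifiers. All 10 passed the filter of at least 10 counts in at least 3 samples.

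RNA was sequenced from layers of the piriform (olfactory) cortex of wild type C57BL/6 mice, given as 8 weeks old, collected by laser capture from fresh-frozen sections and amplified before sequencing. There were 3 samples of each of 3 layers, called A, B and C as in the sample names. Which numbered anatomical layer each letter stands for is not given in the sources used here, so the letters are kept. The names give replicate numbers but not whether the replicates were separate animals, so p-values measure the spread between these samples, which may be technical.

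The libraries held 23104306 to 76471683 counts. Mitochondrial ribosomal RNA took 55.3 to 70.2% of the counts in A, 12.8 to 28.1% in B and 20.5 to 57.1% in C. Levels below are counts per 1000000 after TMM normalization of library sizes (normalized CPM). Sample B3, the third replicate of layer B, stood apart: over 618 genes with short transcripts at both ends, its median log2 ratio of counts at the 5′ end to the 3′ end was -1.19, against -0.78 to -0.34 in the other samples. The members' A against B values are therefore also given without B3. Markers of several cell types, but not of all, moved with layer A. Among 8 oligodendrocyte markers, 1 was higher in A against B and 0 passed against C. They summed to 164 to 267 normalized CPM in A, 43.2 to 216 in B and 130 to 483 in C. Among 8 interneuron markers, 1 was higher in A against B and 2 were lower against C. Their sums were 195 to 350 in A, 56.1 to 300 in B and 182 to 310 in C. All 12 astrocyte markers passed the test as higher in layer A, against B and against C, and their summed level was 5246 to 11112 normalized CPM there, 737 to 1304 in B and 1330 to 1764 in C. The 2 most abundant, the glutamate transporter Slc1a2 and Ndrg2, had 3668 to 8546 and 500.3 to 779 normalized CPM in layer A. Of 8 general neuron markers, 6 fell in A against B and 5 in A against C, and they summed to 1219 to 1796 normalized CPM in A, 2503 to 6319 in B and 2871 to 3961 in C. Snap25 and Syt1, which serve synaptic vesicle release, were the most abundant of those that fell, with log2 fold changes of -2.005 and -1.46 against layer B. Of 8 glutamatergic neuron markers, 1 was higher and 4 were lower in A against B, and 1 was higher and 5 were lower against C. Their median log2 fold changes were -1.36 and -1.56. Their summed level went the other way, at 2368 to 4243 normalized CPM in A. It was 1221 to 1389 in B and 1227 to 1777 in C. The vesicular transporter Slc17a7, which defines cortical excitatory neurons, was present in every sample (70.6 to 142 normalized CPM in A, 165 to 314 in B and 118 to 238 in C). Its layer A values all lay below its layer B values and overlapped those of layer C. In tissue of mixed cells, fewer cells of a type and less RNA per cell cannot be told apart.

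The isozyme pairs are separate genes that differ at many bases, so reads of 50 bases can tell Aldoa from Aldoc, Eno1 from Eno2 and Ldha from Ldhb. The longest stretch shared by the member transcripts was 26 bases for Aldoa and Aldoc, and 18 for Ldha and Ldhb. Eno2 shared at most 20 with the coding transcript Eno1-202. Matching coding exons of equal length are shown to make this visible, in GRCm38 (mm10) and on the strand of the gene, with capitals at the bases where the partner differs. For the aldolases this is exon 3 of Aldoa-201 (chr7:126797337-126797548, minus strand) and of Aldoc-201 (chr11:78324604-78324815, plus strand), which differ at 65 of 212 bases.
Aldoa: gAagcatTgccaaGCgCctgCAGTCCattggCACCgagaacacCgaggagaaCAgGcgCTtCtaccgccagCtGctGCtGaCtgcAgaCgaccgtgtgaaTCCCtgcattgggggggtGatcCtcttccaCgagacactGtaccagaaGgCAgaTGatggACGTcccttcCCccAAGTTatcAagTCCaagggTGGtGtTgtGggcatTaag
Aldoc: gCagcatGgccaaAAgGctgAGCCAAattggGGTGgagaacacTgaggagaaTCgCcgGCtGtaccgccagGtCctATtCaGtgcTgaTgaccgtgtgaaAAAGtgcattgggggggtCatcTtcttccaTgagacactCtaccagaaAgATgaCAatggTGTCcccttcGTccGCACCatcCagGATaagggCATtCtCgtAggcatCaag
The differing bases are spread along the whole exon, and the longest run in which they agree is 14 bases. For the lactate dehydrogenases it is exon 4 of Ldha-202 (chr7:46850178-46850351, plus strand) and of Ldhb-201 (chr6:142498505-142498678, minus strand), which differ at 43 of 174 bases.
Ldha: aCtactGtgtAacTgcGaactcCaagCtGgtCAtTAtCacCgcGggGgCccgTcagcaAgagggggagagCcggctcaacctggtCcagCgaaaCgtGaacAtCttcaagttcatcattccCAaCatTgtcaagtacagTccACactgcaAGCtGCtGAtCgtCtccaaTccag
Ldhb: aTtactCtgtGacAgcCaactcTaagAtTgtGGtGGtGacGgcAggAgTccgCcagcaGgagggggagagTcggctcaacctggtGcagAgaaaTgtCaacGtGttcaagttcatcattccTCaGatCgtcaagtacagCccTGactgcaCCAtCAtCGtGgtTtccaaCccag
Exon 7 of Eno2-201 (chr6:124766105-124766327, minus strand) differs from exon 7 of Eno1-202 at 42 of 223 bases, marked here in the Eno2 sequence.
Eno2: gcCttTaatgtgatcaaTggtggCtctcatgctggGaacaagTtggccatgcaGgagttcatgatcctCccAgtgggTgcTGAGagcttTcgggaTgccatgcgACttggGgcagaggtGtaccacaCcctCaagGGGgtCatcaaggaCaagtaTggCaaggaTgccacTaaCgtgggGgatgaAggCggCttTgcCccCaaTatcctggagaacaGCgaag
No 50-base window of this Eno2 exon occurred in another gene, while all 174 windows of the Eno1 exon also occurred in other genes.

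Shared windows were also counted over whole transcripts. Over the whole Eno1-202 transcript, 72.2% of the 50-base windows also occurred in another gene, and 70.5% in Eno1b, a near-identical copy. The share was 39.3% for Pkm, 27.0% for Ldhb, 19.1% for Ldha, 17.1% for Pfkp and 13.9% for Aldoa. For Pfkp the other gene was the overlapping Pitrm1. It was 2.55% for Hk1, where the overlapping gene is the antisense Hk1os and the libraries were not strand-specific. For Eno2 it was 0.255%, and Aldoc and Pfkm had none. Among steps outside the 10 members, 90.4% of Gapdh-201, 68.0% of Pgk1 and 41.5% of Pgam1 windows were shared. The deposited counts of Gapdh, an enzyme used by every cell, and of Pgam1 were low. The highest-count transcript of Gapdh was Gapdh-205, which is annotated as a retained intron and shared 2.36% of its windows. It had 0.083 to 0.97 normalized CPM, and the coding Gapdh-203 had 46.7% of its mean count. Pgam1 had 0.067 to 0.50. Pgk1 had 3.23 to 12.01, within a similar range to triosephosphate isomerase (Tpi1), which had 2.29 to 8.72 and shared 7.51% of its windows. How the counting treated reads with several matches is not given in the sources used here, so its part in these low values was not tested.

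**Figure D1:**
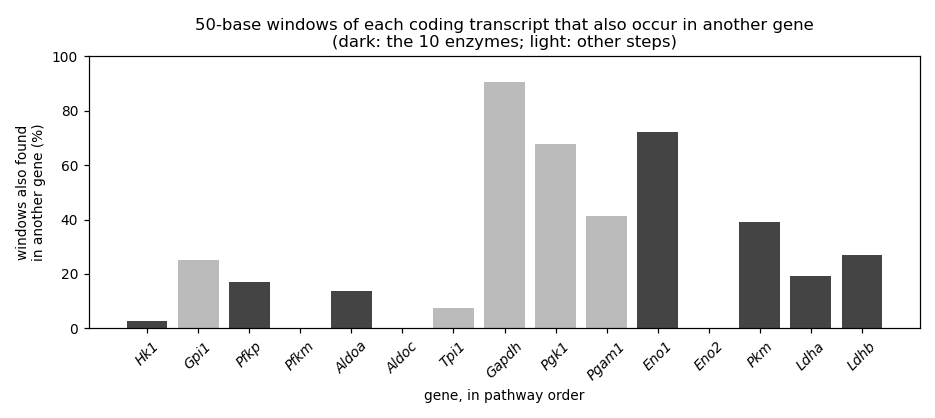
Bars give the share (%) of 50-base windows of each enzyme's coding transcript that also occur in another gene, in pathway order, with the 10 members dark and other steps light. Gapdh (90.4%), Eno1 (72.2%) and Pgk1 (68.0%) are the highest, and Aldoc and Pfkm have none.

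Among the 10 members, Aldoc had the largest difference between layer A and each of the other layers. The enzyme splits fructose 1,6-bisphosphate into a pair of three-carbon sugars, and Aldoc-201 lies at chr11:78322968-78327781 on the plus strand. Its normalized CPM was 436, 408 and 375 in the layer A samples, 38.5, 41.8 and 99.7 in layer B, and 68.5, 59.96 and 136 in layer C. Every layer A sample was higher than any sample of the other layers, and layers B and C overlapped. The fitted log2 fold change of A against B was 2.76 (SE 0.42; 6.77-fold; edgeR quasi-likelihood test, Benjamini-Hochberg adjusted p = 0.000592), and of A against C 2.20 (SE 0.41; 4.61-fold; edgeR adjusted p = 0.00466). Without B3 the A against B value was 3.39. Between B and C it was -0.55 (SE 0.39; edgeR adjusted p = 1.00), and -1.19 without B3 (edgeR adjusted p = 0.202). The astrocyte markers given above rose in the same samples, and their part in the Aldoc difference was not tested.

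Aldoa, the other brain aldolase, had no such excess in layer A. Aldoa-201 lies at chr7:126795234-126799254 on the minus strand. It was measured at 8.89, 14.7 and 29.8 normalized CPM in A, 29.2, 26.7 and 95.0 in B, and 33.8, 22.6 and 48.6 in C. The ranges overlapped in every pair of layers. The A against B value was -1.49 (SE 0.52; edgeR adjusted p = 0.0607) and was -0.59 without B3 (edgeR adjusted p = 0.368). Against layer C it was -0.97 (SE 0.51; edgeR adjusted p = 0.265).

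Set side by side per kilobase within a sample, the aldolases differed most in layer A. There, Aldoc was 26.6-, 15.1- and 6.83-fold above Aldoa. In layer B, Aldoa was 1.40-, 1.18- and 1.76-fold above Aldoc, and in layer C Aldoc was again above Aldoa, by 1.10-, 1.44- and 1.51-fold. The mean log2 ratio of Aldoa to Aldoc was -3.81 ± 0.99 (SD, n = 3) for A, 0.51 ± 0.29 for B and -0.42 ± 0.25 for C. No 2 layers overlapped. Which gene is higher in layer B depends on the transcripts read: with the second-highest transcript of each gene, Aldoc was 1.09- and 1.24-fold above Aldoa in B1 and B2 and Aldoa 1.21-fold above Aldoc in B3, while in layer A Aldoc was 10.1- to 26.5-fold above. The difference of A from B, which does not depend on transcript length, was -4.32 (95% interval from the pooled spread -5.54 to -3.10), that of A from C was -3.39 (-4.60 to -2.17), and that of B from C was 0.93 (-0.29 to 2.15). An exact permutation test of the 3 layers (1680 assignments, one-sided on F) gave p = 0.00357, the smallest it can give, and 0.00536 after Benjamini-Hochberg adjustment over the 3 isozyme ratios. Pairs of layers cannot go below 0.1 in a 2-sided exact test of 3 samples against 3.

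**Figure D2:**
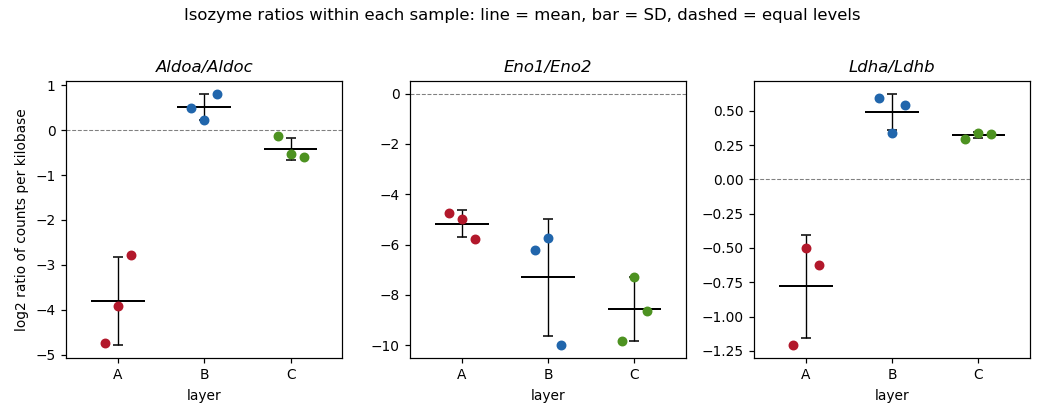
Each point is the log2 ratio of counts per kilobase of an isozyme pair in 1 sample, by layer (x axis), with the mean as a line and the SD as a bar; the dashed line at 0 marks equal levels. Aldoa/Aldoc and Ldha/Ldhb lie below 0 in all 3 layer A samples and above 0 in all 3 layer B samples, while Eno1/Eno2 is below 0 in all 9 samples. The height of each panel relative to 0 depends on the transcript lengths, and the differences between layers do not.

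The enolases convert 2-phosphoglycerate to phosphoenolpyruvate. Eno2-201 (chr6:124760055-124769673, minus strand) was lowest in layer A. Its samples had 26.8, 44.2 and 60.4 normalized CPM in A, 111, 94.2 and 127 in B, and 132, 73.9 and 155 in C. The layer A samples all lay below the rest. The log2 fold change was -1.33 against B (SE 0.35; 2.52-fold lower; edgeR adjusted p = 0.0164) and -1.46 against C (SE 0.35; 2.74-fold lower; edgeR adjusted p = 0.0161), and the B against C value was -0.12 (SE 0.34; edgeR adjusted p = 1.00). This call depended on single libraries. Against B it was lost without A1 (edgeR adjusted p = 0.0804), A2 (0.0604) or B1 (0.0508). Against C it was lost without A1 (0.0737), A2 (0.0618), C1 (0.0816) or C3 (0.0610), with values between -1.45 and -1.20. Without B3 it held against B, at -1.17 (edgeR adjusted p = 0.0302). The summed general neuron markers were also lower in layer A, as given above, and their part in the Eno2 difference was not tested.

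Eno1 could not be compared with Eno2 on equal terms. Its highest-count transcript was Eno1-203 (chr4:150237240-150242727, plus strand), which is annotated as a retained intron and not as coding. It had counts of 8, 14 and 30 in A, 45, 52 and 4 in B, and 4, 5 and 31 in C. The coding transcript Eno1-202 had 3, 11 and 16, then 24, 24 and 13, then 8, 13 and 34. These are small counts for libraries of this depth, and most windows of the coding transcript cannot be placed in a single gene. Eno1-203 had 0.68 to 0.94 normalized CPM in layer A and 0.098 to 0.32 in layer C, ranges that did not overlap. The log2 fold change was 1.82 (SE 0.82; edgeR adjusted p = 0.185, and 0.0389 without B3), and A against B was 0.04 (SE 0.76; edgeR adjusted p = 0.979) and -0.44 without B3 (edgeR adjusted p = 0.666). The log2 ratio of Eno1 to Eno2 averaged -5.16 ± 0.54 (SD, n = 3) for A, -7.30 ± 2.34 for B and -8.57 ± 1.27 for C (exact permutation test of the 3 layers, p = 0.0929, and 0.0214 without B3). With the coding transcript it averaged -6.16, -7.52 and -7.85. These ratios describe what the counting assigned to Eno1, not the level of the enolase.

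Neither Ldha nor Ldhb passed the test between layers on its own, while their ratio separated layer A from the other layers. Ldha-202 (chr7:46845839-46855627, plus strand) had 15.8, 11.4 and 18.4 normalized CPM in A, 20.2, 19.2 and 66.0 in B, and 30.9, 19.3 and 27.2 in C. All layer A samples lay below all others, narrowly. The A against B value was -1.21 (SE 0.43; edgeR adjusted p = 0.0718) and -0.32 without B3, and against C it was -0.76 (SE 0.43; edgeR adjusted p = 0.306). Ldhb-201 (chr6:142490249-142507957, minus strand) had 30.1, 13.3 and 23.3 in A, 11.01, 12.5 and 37.2 in B, and 20.7, 12.6 and 17.8 in C. These ranges overlapped throughout. Its value was 0.14 against B (SE 0.44; edgeR adjusted p = 0.880), 0.97 without B3 (edgeR adjusted p = 0.0677), and 0.38 against C (SE 0.45; edgeR adjusted p = 0.673).

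Per kilobase, Ldhb exceeded Ldha in every layer A sample, by 2.31-, 1.42- and 1.54-fold. Ldha exceeded Ldhb in every sample of the other layers, by 1.505-, 1.27- and 1.46-fold in layer B and 1.23-, 1.26- and 1.26-fold in layer C. Sample B3, with the highest value of both genes, had a ratio within the range of B1 and B2. The mean log2 ratio of Ldha to Ldhb was -0.78 ± 0.38 (SD, n = 3) in A, 0.49 ± 0.13 in B and 0.32 ± 0.02 in C. The difference of A from B was -1.27 (95% interval -1.73 to -0.81) and of A from C -1.10 (-1.56 to -0.64), and that of B from C was 0.17 (-0.29 to 0.63). The exact permutation test of the 3 layers gave p = 0.00357, or 0.00536 after Benjamini-Hochberg adjustment over the 3 ratios. Without B3 the A from B difference was -1.25, and with the second-highest transcript of each gene it was -1.31. Which gene is higher within a sample turned with that choice, because Ldhb-202 is only 437 bases long and has nearly the count of Ldhb-201: Ldhb was then above Ldha in all 9 samples, by 4.59- to 7.60-fold in A, 2.07- to 2.49-fold in B and 2.51- to 2.601-fold in C. The data thus show a lower Ldha to Ldhb ratio in layer A, and not which of them is the more abundant.

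The other 4 members, Hk1, Pkm, Pfkp and Pfkm, had their lowest mean level in layer A but did not pass the test. Hexokinase 1 (Hk1-202, chr10:62268855-62340542, minus strand) phosphorylates glucose on entry. It had 10.7, 20.3 and 14.9 normalized CPM in A, 31.9, 29.1 and 26.5 in B, and 23.2, 16.2 and 31.3 in C. Layers A and B did not overlap, but the value was -0.93 (SE 0.33; edgeR adjusted p = 0.0666, and 0.0615 without B3). The pyruvate kinase gene (Pkm-202, chr9:59656573-59679189, plus strand) acts at the last step. It had 14.8, 14.7 and 24.5 in A, 31.2, 29.4 and 49.5 in B, and 36.6, 22.7 and 47.2 in C. Layer A lay below layer B, and overlapped layer C. The values were -1.02 against B (SE 0.35; edgeR adjusted p = 0.0591), -0.70 without B3 (edgeR adjusted p = 0.171), and -0.98 against C (SE 0.35; edgeR adjusted p = 0.0892, and 0.0394 without B3).

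Phosphofructokinase commits glucose carbon to glycolysis, and both its platelet and its muscle subunit were measured. Pfkp-207 (chr13:6579768-6648777, minus strand) had 21.0, 17.8 and 35.4 normalized CPM in A, 34.3, 37.6 and 86.0 in B, and 46.6, 40.4 and 42.9 in C. Layer A lay below layer C and overlapped layer B. Its value was -1.09 against B (SE 0.38; edgeR adjusted p = 0.0611), -0.48 without B3 (edgeR adjusted p = 0.309), and -0.81 against C (SE 0.37; edgeR adjusted p = 0.198). Pfkm-201 (chr15:98108466-98132441, plus strand) had 19.6, 34.2 and 34.5 in A, 30.7, 27.9 and 57.7 in B, and 32.3, 19.6 and 45.1 in C. These ranges overlapped in all pairs of layers, and the value was -0.39 against B (SE 0.38; edgeR adjusted p = 0.538), 0.06 without B3, and -0.14 against C (SE 0.38; edgeR adjusted p = 0.878).

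**Figure D3:**
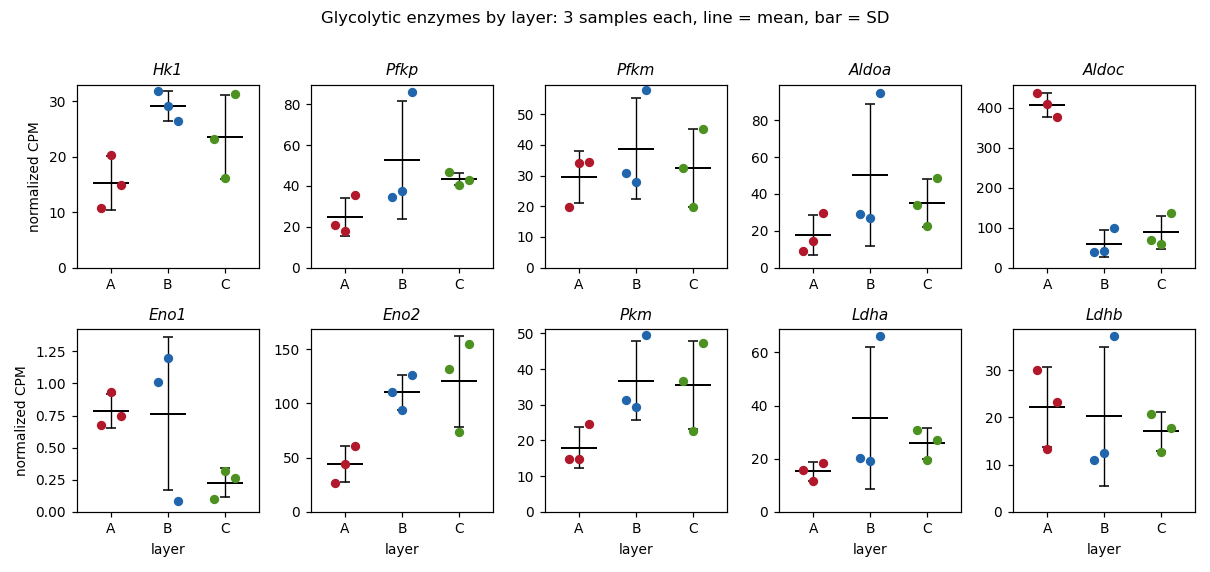
Points are the normalized CPM of each member in the 9 samples (y axis, from 0) by layer (x axis), replicates 1 to 3 from left to right, with the mean as a line and the SD as a bar. Aldoc is above 370 in layer A and at most 136 elsewhere, Eno2 is lowest in layer A, and the high layer B point in the Pfkp, Pfkm, Aldoa, Ldha and Ldhb panels is B3.

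Counted over the 10 members, 2 passed in A against B (Aldoc higher, Eno2 lower), where 16.5% of the 56416 transcripts tested passed. In A against C the same 2 genes passed, against 11.3% of all transcripts, and both also passed the test for any difference among the layers, against 14.3%. With DESeq2, 5 members passed in A against B, namely Aldoc higher and Pfkp, Aldoa, Eno2 and Pkm lower, where 20.7% of all transcripts did, and 2 in A against C, where 15.7% did. By edgeR on the 56416 transcripts, a count of 2 is near what these shares give, so it is no result about the pathway. The edgeR count in A against B changed with the settings. It was 6 with 1 transcript per gene, where 24.3% of all features were called, and 2 with DESeq2 size factors, where 16.4% were. In A against B, 7 members had an unadjusted p under 0.05, where 29.0% of all transcripts did, and 4 did without B3. In A against C there were 5, against 24.5%. No overlap with the layer A samples lower was found for 4 members in A against B (Hk1, Eno2, Pkm and Ldha; 15.1% of all transcripts) and for 3 in A against C (Pfkp, Eno2 and Ldha; 14.5%). No overlap with layer A higher was found for Aldoc in A against B (17.2%) and for Aldoc and Eno1 in A against C (17.0%).

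The members' median log2 fold change was -0.98 in A against B, where the median of all transcripts tested was -0.12, and -0.46 without B3. In A against C it was -0.69, beside -0.01 for all transcripts. Between B and C no member passed the edgeR test, by which 0.00% of all transcripts were called. Eno1 alone had an unadjusted p under 0.05 there (4.11% of all transcripts), and DESeq2 called no member either. The members' values in this comparison ran from -0.55 to 1.78, and none separated the samples of the layers, which 4.67% of all transcripts did with B lower and 3.92% with B higher.

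**Figure D4:**
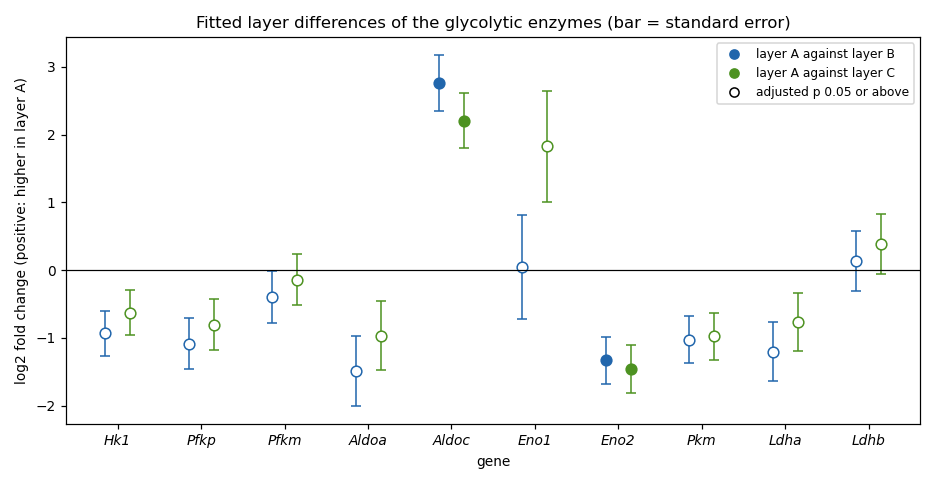
Points are fitted log2 fold changes of each member (y axis; positive is higher in layer A), against layer B in blue and layer C in green, with the standard error as a bar. Only the filled points of Aldoc (2.76 and 2.20) and Eno2 (-1.33 and -1.46) had an adjusted p under 0.05.

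Per kilobase of the highest-count transcript, the order of the enzymes differed between layers. Such levels depend on the transcript read, as given for the lactate dehydrogenases above. In layer A, Aldoc led at 146 ± 11 normalized CPM per kilobase (SD, n = 3). Ldhb followed at 17.0 ± 6.5 and Eno2 at 15.7 ± 6.0, whose spreads overlap. In layer B, Eno2 led at 39.5 ± 5.8, followed by Aldoa at 33.3 ± 25.6 and Ldha at 22.1 ± 16.9, whose spreads overlap. Without B3 the layer B means were 36.6 for Eno2, 18.5 for Aldoa, 14.9 for Pkm, 14.4 for Aldoc and 12.4 for Ldha, so the places after Eno2 rest on B3 in part. In layer C it was Eno2 at 43.0 ± 14.97, Aldoc at 31.6 ± 14.9 and Aldoa at 23.2 ± 8.6, which also overlap. Aldoc stood clear of the next gene only in layer A, where its lowest sample had 135 and the highest sample of Ldhb had 23.1.

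Of 52 other genes of glucose metabolism, 45 were tested. In A against B, 12 passed (9 higher and 3 lower in layer A; 10.7% and 5.83% of all transcripts were called in these directions), and in A against C, 8 passed (7 higher, 1 lower; 6.98% and 4.35%). In B against C none passed by edgeR or DESeq2, and 1 of the 45 had an unadjusted p under 0.05. Without B3 the edgeR counts were 14 against B and 12 against C, and against B Gys1 alone of the 12 was lost (edgeR adjusted p = 0.0506). The counts against B were 7 without A1, and those against C were 3 without A1, 5 without A2, 2 without C1 and 5 without C2. Few of the calls were glycolytic enzymes. Of 14 tested enzymes outside the members only Hk2, a second hexokinase, passed in A against B (2.62, 2.67 and 1.22 normalized CPM in A, 0.157 to 0.791 in B; log2 fold change 2.30; edgeR adjusted p = 0.0221), and it missed the threshold against C (edgeR adjusted p = 0.0670). The Hk2 call was lost without A1, A2, B1 or B2 (edgeR adjusted p of 0.0693 to 0.0850), and its value was 3.13 without B3. Gpi1, the isomerase of the second step, had values of -0.22 and 0.02 against B and C, and triosephosphate isomerase (Tpi1) had -0.996 and -0.724 (edgeR adjusted p = 0.162 and 0.369). Pgk1 had -0.37 and -0.31, with the limit of shared windows given above.

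The transporters split by gene. Slc2a1 (GLUT1), the glucose transporter of the blood-brain barrier and of astrocytes, had 125, 124 and 138 normalized CPM in A, 20.5, 19.5 and 32.5 in B, and 31.9, 30.7 and 40.7 in C. Layer A did not overlap the others, and the log2 fold change was 2.41 against B (SE 0.30; edgeR adjusted p = 0.000233) and 1.90 against C (SE 0.29; edgeR adjusted p = 0.00235). Slc2a3 (GLUT3), the main neuronal glucose transporter, was lower in layer A than in B. Its highest-count transcript, Slc2a3-204, is annotated as a retained intron, and it had 10.1, 29.9 and 19.9 in A, 85.0, 56.2 and 39.1 in B, and 55.3, 31.1 and 63.2 in C. Layer A was below both without overlap, at -1.59 against B (SE 0.42; edgeR adjusted p = 0.0156) and -1.32 against C (SE 0.41; edgeR adjusted p = 0.0505). Its call against B was lost without A1, A3 or B1 (edgeR adjusted p of 0.0521 to 0.0907). Of the lactate transporters, Slc16a1 (MCT1), found in glia and endothelium, had 14.9, 16.0 and 10.02 in A, 1.80 to 4.23 in B and 3.44 to 5.65 in C (2.23 against B, edgeR adjusted p = 0.00183; 1.68 against C, edgeR adjusted p = 0.0144, lost without A1, A2, C1 or C2). Slc16a7 (MCT2), the neuronal form, had 13.1, 13.8 and 10.5 in A, 22.7 to 30.4 in B and 14.8 to 23.7 in C. It was lower in layer A than in B (-1.16, SE 0.31; edgeR adjusted p = 0.0165) and missed the threshold against C (-0.73; edgeR adjusted p = 0.146). The call against B was lost without A3 or B1 (edgeR adjusted p = 0.0617 and 0.0842). Without B3, the values against B were 2.74 for Slc2a1, -1.77 for Slc2a3, 2.66 for Slc16a1 and -1.04 for Slc16a7.

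Of 8 tested glycogen genes, 5 were higher in A against B, where 10.7% of all transcripts were called higher, and 4 in A against C, where 6.98% were. None was lower, and their median log2 fold changes were 1.503 and 1.35. Pygb and Pygm, the brain and muscle glycogen phosphorylases, release glucose units from glycogen. Pygb had 56.0, 52.2 and 35.8 normalized CPM in A, 8.78 to 10.8 in B and 9.31 to 14.9 in C (2.24 against B, edgeR adjusted p = 0.000347). Pygm followed at a lower level (2.40 against B, edgeR adjusted p = 0.00554), and both also passed against C, with edgeR adjusted p of 0.00241 for Pygb and 0.0286 for Pygm. Ugp2, which makes the UDP-glucose from which glycogen is built, passed against B alone (1.59; edgeR adjusted p = 0.0103), Gys1, the glycogen synthase, passed narrowly against B (1.27; edgeR adjusted p = 0.0496), and the branching enzyme Gbe1 passed against C alone (1.68; edgeR adjusted p = 0.0454). Leaving out 1 sample at a time, Pygb kept its calls in both comparisons and Pygm kept its call against B. Against C, Pygm was lost without A1, A2, C1 or C2. Ugp2 was lost without A1, the Gys1 call was lost whichever sample was left out, and Gbe1 was lost without any of A1, A2, B1, C1, C2 or C3. Without B3, the values against B were 2.21 for Pygb, 2.91 for Pygm and 1.87 for Ugp2.

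The pyruvate dehydrogenase kinases, which inhibit entry of pyruvate into the citric acid cycle, had calls in both directions. Pdk4 had 9.99, 8.28 and 4.16 normalized CPM in A, 0.554 to 1.21 in B and 1.25 to 2.11 in C, without overlap (3.20 against B, SE 0.48, edgeR adjusted p = 0.000592; 2.13 against C, SE 0.46, edgeR adjusted p = 0.00993, lost without C1 at 0.0598). Pdk1 was lower in layer A, at 8.53 to 11.2 against 17.99 to 20.9 in layer B (-1.02; edgeR adjusted p = 0.0263), and had -0.56 against C (edgeR adjusted p = 0.262). The Pdk1 call was lost without A1, A2, A3, B1, B2 or C1 (edgeR adjusted p of 0.0510 to 0.106), and without B3 the values against B were 3.67 for Pdk4 and -0.92 for Pdk1. Tigar, a fructose bisphosphatase that opposes glycolysis, was lower in A than in C (-1.32; edgeR adjusted p = 0.0458), a call lost when any of A1, A2, A3, B1, C1, C2 or C3 was left out. Of the 8 tested genes of pyruvate entry into mitochondria, 0 passed by edgeR and 0 by DESeq2 in either comparison, while 2 had an unadjusted p under 0.05 against B and 0 against C. Layer A also had more summed signal from markers of other cell types. The 8 endothelial and pericyte markers summed to 227 to 382 normalized CPM in A, 19.5 to 60.4 in B and 50.9 to 72.3 in C. All 8 were higher against B and 7 against C. The 8 microglia markers summed to 130 to 168 in A, 20.8 to 55.7 in B and 44.7 to 66.1 in C. Of these, 6 were higher against B and 6 against C. The 8 meningeal markers summed to 82.5 to 182 in A, 2.09 to 10.2 in B and 6.63 to 8.31 in C, and all 8 were higher against both. In each of these lists no marker was at 0 in layer A, and their part in the layer A transporter and glycogen values was not tested.

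**Figure D5:**
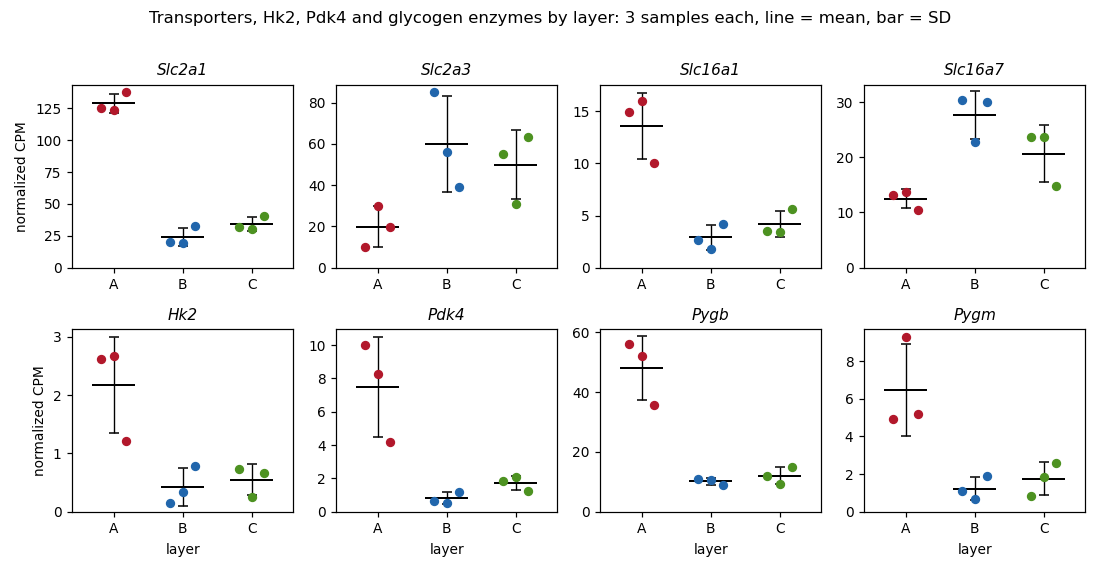
Points are the normalized CPM of each gene in the 9 samples (y axis, from 0) by layer (x axis), with the mean as a line and the SD as a bar. Slc2a1, Slc16a1, Hk2, Pdk4, Pygb and Pygm are highest in layer A, where Slc2a1 has 124 to 138 and no other sample is above 40.7, and Slc2a3 and Slc16a7 are lowest there.

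The genes whose pattern over the 9 samples lay nearest to each isozyme were taken from 4410 genes with a mean of at least 10 normalized CPM, by the root mean square difference of centred log2 values. For Aldoc they were Mfge8 (0.24), Acsbg1 (0.25) and AI464131 (0.26). For Aldoa they were Ssu72 (0.10), Cdipt (0.13) and Scg5 (0.14), and for Eno2 they were Clstn1 (0.21), Kctd13 (0.22) and Nrsn2 (0.23). Ldha was closest to Psmc2 (0.11), Rtca (0.18) and Farsb (0.19), while Ldhb was closest to Lonp2 (0.19), Stk11 (0.22) and Degs2 (0.23). No gene came close to Eno1, whose nearest, Reln, differed by 0.81. The distances include B3, the sample in which Aldoa, Ldha and Ldhb were highest. How far the likeness rests on B3 was not tested.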

How the data were processed

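The processing notes of the submitters name bcl2fastq 1.8.4, Bowtie, HTSeq 0.5.3 and mm10. The deposited files hold raw counts per Ensembl transcript for the 9 samples, made by the authors with no normalization from amplified, strand non-specific libraries read at 50 bases. Transcripts of a gene that share exons carry nearly the same counts, so summing them counts reads more than once. Reads without molecular identifiers are not independent molecules.

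Identifiers were joined to GENCODE annotation of GRCm38 (82779 of 95533, 86.6%). Transcripts that reached 10 counts in 3 or more samples were fitted with edgeR 4.0.16 (quasi-likelihood F-test, TMM, all 9 samples, layer as the factor), with Benjamini-Hochberg adjustment over all 56416 tested and a threshold of 0.05. DESeq2 1.42.0 was an alternative. Isozyme ratios were log2 ratios of counts per kilobase, tested by exact permutation of the layers (SciPy 1.17.1), with intervals from the pooled spread (6 degrees of freedom). The pipeline was tested on simulated counts, with 200 transcripts changed in layer A. For A against B, edgeR called 59% of changes of log2 2 and 2% of changes of log2 1. There were 6 false calls. Only 200 of 54445 simulated transcripts differed, while 16.5% of the transcripts tested were called in A against B in the data. The Benjamini-Hochberg adjustment is stricter where fewer transcripts differ, so these shares do not give the recovery in the data. A member that did not pass may still differ by such an amount. All 10 members were named, and of 52 other genes of glucose metabolism those past the threshold in A against B or A against C, plus a fixed set of transporters and enzymes. Members, lists and tests were chosen with earlier results of these data known. The counts over these lists include 1 gene that is not reported here by name.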

Additional observations from a re-analysis of the deposited data

How the results depend on the processing

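The number of members called in A against B was 2, and it was 5 with the DESeq2 test, the replicate block or counts summed by gene, and 6 with no filter or 1 transcript per gene, where 20.7, 16.3, 22.7, 13.6 and 24.3% of all features tested were called in that order; Aldoc and Eno2 were among them each time. Leaving out 1 sample at a time gave 1 to 5 members in A against B, 1 to 4 in A against C and 1 to 3 for any difference among layers, and Aldoc was called in every A against B and A against C fit. Members called in B against C were 0 under all alternatives. The other genes of glucose metabolism called in A against B were 7 to 14 when 1 sample was left out, and 10 to 14 otherwise; in A against C they were 2 (without C1) to 12 (without B3), and 7 to 12 otherwise.

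All transcripts called came to 3562 (counts summed by gene) and 3689 (1 transcript per gene) in A against B, and to 2622 and 2773 in A against C, where fewer features were tested. In B against C they were 130 with the DESeq2 test, 10 with no filter, 1 summed by gene and 4 with 1 transcript per gene. Leaving out 1 sample gave 5570 to 11337 in A against B, 1369 (without C1) to 9740 (without B3) in A against C, and 0 to 17 in B against C. These causes were not tested.

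The A minus B log2 difference of Aldoa/Aldoc ran from -4.83 to -3.85 when 1 sample was left out, and that of Ldha/Ldhb from -1.41 to -1.06, always with an exact permutation p under 0.05. Eno1/Eno2 ran from 0.80 to 2.94, the lowest without B3 (exact permutation p = 0.0214 against 0.0929), and its other alternatives stayed above 0.05. Signs that turned belonged to values that passed in neither fit. Pfkm was between -0.55 and 0.063 against B (the highest without B3) and between -0.39 and 0.20 against C (0.085 without A1, 0.20 without C3). Eno1 against B was -0.11 summed by gene and -0.056 with 1 transcript per gene, and between -0.44 and 0.56 with 1 sample left out. Ldhb against B was between -0.14 and 0.97.

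Whether the replicate numbers pair the samples is not given, and the counts do not settle it. Same-numbered samples of different layers had correlations of -0.19 to 0.23 in their deviations from the layer means, over 0.1 in 4 of 9 pairs. Differently numbered samples of different layers had -0.35 to 0.37. With the replicate block, Pfkp, Aldoa and Pkm joined the calls in A against B and Pkm those in A against C, and the exact permutation p within replicate numbers was 0.0278 for Aldoa/Aldoc and for Ldha/Ldhb, the smallest it can give, and 0.139 for Eno1/Eno2.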

Other observations

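Parts of Aldoa gave opposite answers in sample B3. The full-length Aldoa transcript had 95.0 normalized CPM in B3 against 29.2 and 26.7 in B1 and B2, whereas Aldoa-209, whose shared bases lie on average 28.3% of the way along that transcript, had 1.31 against 9.46 and 6.19, so 3.40-fold higher by 1 measure and 5.97-fold lower by the other. Other transcripts of the 10 members with a mean of at least 50 counts were read in the same way. Of 29 with a mean position in the first 40% of the main transcript, 27 had their lowest layer B value in B3. Over the 29, the median log2 ratio of B3 to the mean of B1 and B2 was -1.14. They include Pfkp-212, a retained intron of 8681 bases that shares 1573 with the main Pfkp transcript of 4145 bases. Of 3 with a mean position beyond 60%, all 3 had their highest value in B3. Many of these transcripts share exons and reads, so they are not independent. In Hk1 both measures were lower in B3, by unequal amounts: the main transcript had 26.5 in B3 against 31.9 and 29.1, and Hk1-205, with a mean position of 43.9%, had 6.47 against 22.8 and 20.6. The Ldha to Ldhb ratio per kilobase was 1.46 in B3 against 1.505 and 1.27 in B1 and B2.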
